A study of Mus musculus with 8 samples.

Results

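The genes described here are 50 listed genes of ribosome biogenesis, chosen by name for their work in making ribosomes. Of these, 49 have a row among the 24197 genes of the authors' deposited table, and Noc2l was not analysed here. Liver poly-A RNA was sequenced from hypophysectomized male CD-1 (ICR) mice, an outbred strain, in 8 libraries of 4 groups: untreated, and 30, 90 and 240 min after 1 intraperitoneal injection of recombinant rat growth hormone (GH) at 125 ng per g body weight. All animals, controls included, lacked the pituitary from 7 weeks of age and were 11 weeks old, so that all values come from livers without the animals' own GH and other pituitary hormones. Each library was a pool of several mice, given as 4 mice by the table's legend, and each group had 2 pools. The labels speak of a vehicle injection for control mice, whereas the design text calls those mice untreated. If they were not injected, GH and the act of injecting cannot be told apart.

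Ribosomes are made in the nucleolus. RNA polymerase I transcribes a long precursor, and small nucleolar ribonucleoproteins (snoRNPs) modify and help to fold it. Box C/D snoRNPs methylate its riboses, and box H/ACA snoRNPs turn uridines into pseudouridines. Assembly factors, helicases, GTPases and nucleases then cut the precursor and build it with ribosomal proteins into the small and the large subunit. In growing cells many of these genes are targets of the transcription factor Myc, and the liver can change its ribosome content quickly with feeding and hormones. The 49 genes were sorted by role into 6 groups: 3 box C/D proteins, 4 box H/ACA proteins, 5 genes of RNA polymerase I and its factors, 4 nucleolar scaffold and shuttling proteins, 17 small subunit factors and 16 large subunit factors.

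Levels are the authors' mean FPKM of a group (reads scaled to transcript length and library size), given once for the gene body and once for introns. Values of the single pools were not at hand, and hence neither an error of a ratio nor a spread can be printed. The ratio of a GH group over untreated and its adjusted p-value are the authors', and a gene was called where that adjusted p was below 0.05. Library totals, recovered from the smallest FPKM steps, were about 7440000 and 10520000 reads in untreated livers, 9500000 and 9850000 at 30 min, 15380000 and 17120000 at 90 min and 5940000 and 14150000 at 240 min. The smaller library at 240 min was the shallowest of all. In it 3 reads on 1 kilobase of transcript amount to a group mean of 0.253 FPKM, and every listed gene was above this level in each group, the lowest value being 1.12 FPKM for Rrp1b at 30 min. The 3 comparisons share the same untreated pools.

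The listed genes rose late, most of them by 240 min and few by 90 min. Of the 49 genes 36 were called higher at 240 min and none lower in the authors' deposited table, and the median log2 ratio over all 49 was 0.73. Among all 24197 genes 6.7% were called higher and 4.22% lower at 240 min, and among the 10736 genes with a mean of at least 1 FPKM, a filter that all 49 pass, 14.4% and 8.58%, with a median log2 ratio of 0.03. All 49 ratios in the authors' deposited table were above 1 at 240 min, the log2 values lying between 0.01 for Rrp9 and 2.11 for Nop58. At 90 min the authors' deposited table called 14 genes higher and 2 lower, against 7.56% and 5.83% of all genes and 15.9% and 12.5% of those with at least 1 FPKM, and the median log2 ratio was 0.14. At 30 min none was called in either direction in the authors' deposited table, where 0.116% of all genes were called higher and 0.149% lower, and 0.224% and 0.289% of those with at least 1 FPKM. At that time the authors' deposited table had 26 ratios above 1 and 23 below, and the median log2 ratio was 0.06. By the authors' deposited table, a rise of at least 2-fold was called in 4 genes at 90 min, against 1.37% of all genes and 2.34% of those with at least 1 FPKM, and in 17 at 240 min, against 1.93% and 3.71%. The summed mean FPKM of the 49 genes was 465 in untreated livers and 469, 523 and 797 at 30, 90 and 240 min. The libraries are of whole liver, so that more RNA per cell and more cells of an expressing type cannot be told apart.

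**Figure D1:**
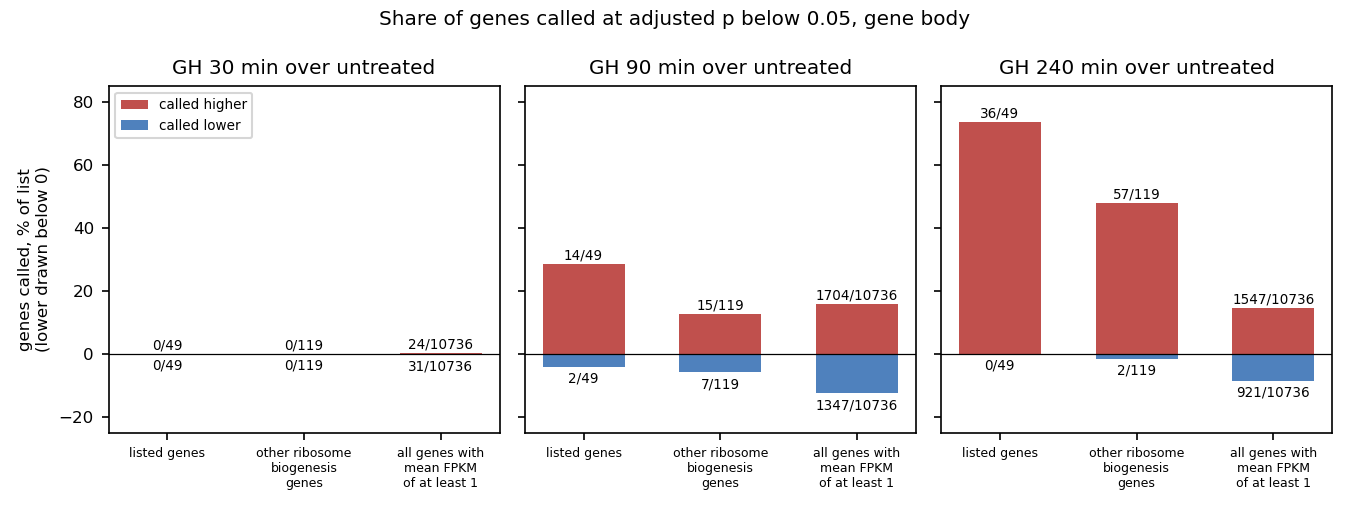
Share of genes called at an adjusted p below 0.05 in the authors' comparisons of gene body reads, as a percentage of each list, for GH 30, 90 and 240 min over untreated. Red bars give genes called higher and blue bars, drawn below 0, genes called lower. Counts stand at the bars: at 240 min 36 of 49 listed genes, 57 of 119 other ribosome biogenesis genes and 1547 of 10736 genes with a mean of at least 1 FPKM were called higher.

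Promoters are shown for 4 genes to which the results below return: Nop58 and Gtpbp4, the listed genes with the smallest adjusted p at 240 min, Nop2, a large subunit factor that rose at both late times, and Rrn3, the RNA polymerase I factor that was highest at 90 min. The 250 bases before the RefSeq gene start are printed 5′ to 3′ on the gene's own strand, from the GRCm38.p6 build. Capitals mark matches on either strand to any of 4 motifs: CACGTG, the E-box form bound by Myc and related factors, TTCNNNGAA, the palindrome of STAT factors, CCGGAAG, an ETS family motif, and the motif of the factor NRF1. They lie at chr1:59684756-59685005 on the plus strand for Nop58, chr13:8996013-8996262 on the minus strand for Gtpbp4, chr6:125131633-125131882 on the plus strand for Nop2 and chr16:13780449-13780698 on the plus strand for Rrn3.
Nop58: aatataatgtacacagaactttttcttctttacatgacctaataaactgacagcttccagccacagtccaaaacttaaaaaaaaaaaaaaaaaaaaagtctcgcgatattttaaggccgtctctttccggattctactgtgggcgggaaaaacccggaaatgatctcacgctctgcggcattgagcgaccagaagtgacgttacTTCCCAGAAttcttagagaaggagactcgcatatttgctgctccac
Gtpbp4: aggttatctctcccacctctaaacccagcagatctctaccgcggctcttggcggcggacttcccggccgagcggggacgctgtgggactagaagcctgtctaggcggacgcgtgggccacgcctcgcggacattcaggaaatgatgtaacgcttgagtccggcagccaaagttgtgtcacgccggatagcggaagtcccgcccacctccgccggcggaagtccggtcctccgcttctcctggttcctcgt
Nop2: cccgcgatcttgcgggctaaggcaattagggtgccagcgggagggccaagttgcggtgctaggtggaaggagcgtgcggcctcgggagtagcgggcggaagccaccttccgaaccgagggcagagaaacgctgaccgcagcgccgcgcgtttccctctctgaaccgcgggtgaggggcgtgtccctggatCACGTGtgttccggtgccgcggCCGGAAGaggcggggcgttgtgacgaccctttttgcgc
Rrn3: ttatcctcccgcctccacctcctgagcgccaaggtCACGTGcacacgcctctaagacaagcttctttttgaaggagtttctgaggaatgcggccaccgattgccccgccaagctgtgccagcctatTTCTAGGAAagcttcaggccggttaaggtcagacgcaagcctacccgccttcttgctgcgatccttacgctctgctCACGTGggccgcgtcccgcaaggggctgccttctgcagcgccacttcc

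Nop58 has 1 match to the STAT palindrome, which begins 46 bases before the start. Nop2 has the E-box at −60 and the ETS motif at −38. Rrn3 has the E-box at −215 and again at −48, and the STAT palindrome at −124. Nop2 also has the NRF1 motif from −4 across the start, and Rrn3 has the ETS motif from −5 across the start and again at 19 after it. Those 3 matches are counted in the shares that follow but are not in capitals, since they end beyond the bases printed. Gtpbp4 has none of the 4 motifs. In these promoters no match overlaps one of another motif. RefSeq promoters reaching 250 bases before and 50 bases after the start were at hand for 44 of the 49 genes, and the same window of 27025 genes and of 8054 genes with at least 1 FPKM was searched alike. The E-box was in 9 of the 44 (20.5%), against 10.6% of the genes with at least 1 FPKM and 7.24% of all genes. The ETS motif was in 15 of the 44 (34.1%), against 19.3% and 9.12%. The STAT palindrome was in 6 (13.6%), against 7% and 8.47%, and the NRF1 motif in 7 (15.9%), against 11.2% and 4.78%. Of the 34 genes among the 44 that the authors' deposited table called higher at 240 min, 8 had the E-box (23.5%), and among the 10 that were not called 1 had it (10%). The STAT palindrome was in 5 of the 34 (14.7%) and 1 of the 10 (10%). The ETS motif was in 11 of the 34 (32.4%) and 4 of the 10 (40%), and the NRF1 motif in 4 of the 34 (11.8%) and 3 of the 10 (30%). These are letter matches and no measure of binding.

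Among the box C/D proteins, the 2 scaffold proteins rose and the enzyme was not called. Nop58 (chr1:59741850-59768354, mm9), a core protein of the box C/D particle, had mean levels of 9.33 FPKM in untreated livers and 11.9, 24 and 41.7 FPKM at 30, 90 and 240 min. The level was higher at each later time. It was 2.57-fold higher than untreated at 90 min (adjusted p = 2.02e-17) and 4.32-fold higher at 240 min (adjusted p = 5.5e-34) in the authors' deposited table. After removal of the trend of ratios with transcript length and with GC content, its log2 value was 0.67 at 90 min in place of 1.36, and 1.67 in place of 2.11 at 240 min. The length used for each gene is that of its longest annotated transcript, 9507 nucleotides for Nop58, which need not be the one expressed. Nop56 (chr2:130100148-130105049, mm9), its partner, had 8.95 FPKM in untreated livers and 9.56, 11.3 and 21.4 FPKM at 30, 90 and 240 min. It was called only at 240 min, 2.32-fold higher with an adjusted p of 3.31e-09 in the authors' deposited table, where its adjusted p at 90 min was 0.15. Fbl encodes fibrillarin, the methyltransferase of the particle, and had 29.7 FPKM in untreated livers and 23.2, 24.2 and 36.7 FPKM at the 3 times, and the authors' deposited table gave adjusted p-values of 0.154 at 90 min and 0.466 at 240 min.

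Of the 4 box H/ACA proteins 2 were called higher at 240 min and 1 lower at 90 min. Among genes with at least 1 FPKM 14.4% were called higher at 240 min and 12.5% lower at 90 min. Gar1 had 5.01 FPKM in untreated livers and 5.33, 5.47 and 11.5 FPKM at 30, 90 and 240 min, so that the first 3 values lay close together. Its 2.17-fold increase at 240 min had an adjusted p of 4.82e-06 in the authors' deposited table. Dkc1, the pseudouridine synthase itself, had 9.84 FPKM at 240 min and 6.29 FPKM in untreated livers, with a fold of 1.52 and an adjusted p of 0.0102 in the authors' deposited table. Nhp2 fell to 14.3 FPKM at 90 min, against 20.1 FPKM in untreated livers, with a fold of 0.71 and an adjusted p of 0.00977 in the authors' deposited table. At 240 min it had 23.6 FPKM and was not called (adjusted p = 0.844, the authors' deposited table). With the length and GC trend removed, its log2 ratio at 90 min was −0.14 in place of −0.49. Nop10, the smallest of these proteins, had 24 FPKM at 90 min and 31.2 FPKM in untreated livers (adjusted p = 0.0843, the authors' deposited table).

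RNA polymerase I genes differed among themselves in time and size. Rrn3 (chr16:13780792-13814934, mm9) encodes the initiation factor that couples the polymerase to the ribosomal gene promoter and that responds to growth signals. It had 5.54 FPKM in untreated livers and 7.09, 13.8 and 12.2 FPKM at 30, 90 and 240 min. The authors' deposited table gave a fold of 2.47 at 90 min (adjusted p = 1.05e-14) and of 2.12 at 240 min (adjusted p = 7.42e-08). Polr1b, the second largest subunit of the enzyme, had 3.09 FPKM in untreated livers and 3.15, 4.34 and 7.37 FPKM at the 3 times. Its fold was 1.39 at 90 min (adjusted p = 0.0241) and 2.25 at 240 min (adjusted p = 1.97e-07) in the authors' deposited table. Polr1a, the largest subunit, was called at 240 min, with a log2 ratio of 0.65 and an adjusted p of 0.00978 in the authors' deposited table. Polr1c, a subunit that RNA polymerase III shares, and Ubtf, which binds ribosomal gene promoters, were called at no time. Ubtf had 15.5 FPKM at 240 min and 13.9 FPKM in untreated livers, the log2 ratio of 0.10 having an adjusted p of 1 in the authors' deposited table.

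Of the 4 nucleolar scaffold and shuttling proteins 3 were called higher at 240 min, against 14.4% of genes with at least 1 FPKM. The most abundant one was not called. Nolc1 (chr19:46150337-46160033, mm9), a chaperone of snoRNPs, had 4.83 FPKM in untreated livers and 6.25, 8.12 and 17.2 FPKM at 30, 90 and 240 min. By the authors' deposited table it rose 1.67-fold at 90 min (adjusted p = 0.00011) and 3.39-fold at 240 min (adjusted p = 9.66e-22). Ddx21, a nucleolar RNA helicase, had 6.87 FPKM in untreated livers and 6.51, 9.83 and 17.8 FPKM at the 3 times. It was 1.43-fold higher at 90 min (adjusted p = 0.00186) and 2.49-fold higher at 240 min (adjusted p = 1.67e-14) in the authors' deposited table. Its log2 ratio of 0.52 at 90 min came to 0.31 without the length and GC trend. Nucleolin (Ncl), an abundant protein that binds the precursor, had 33.7 FPKM at 240 min and 22.8 FPKM in untreated livers, a 1.42-fold increase with an adjusted p of 0.00479 in the authors' deposited table. Its log2 ratio of 0.51 came to 0.15 once the length and GC trend was removed. Nucleophosmin (Npm1), a scaffold of the outer nucleolus, had the highest level of all listed genes and was called at no time. It had 79.9 FPKM at 240 min and 65.5 FPKM in untreated livers, with an adjusted p of 0.465 in the authors' deposited table.

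Over the whole list, calls at 240 min were fewer among the genes with the highest untreated levels. The 8 genes with the highest FPKM in untreated livers were Npm1, Nop10, Fbl, Ncl, Nhp2, Mrto4, Polr1c and Ubtf, and 1 of them, Ncl, was called higher at 240 min in the authors' deposited table. The median log2 ratio of the 8 was 0.24. Of the other 41 genes, the authors' deposited table called 35 higher, and their median was 0.84. The untreated level is also the denominator of the ratio. Ranked by the mean over the 4 groups, 4 of the top 8 and 32 of the other 41 were called higher by the authors' deposited table, the medians being 0.38 and 0.75.

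Of the 17 small subunit factors 12 were called higher at 240 min, 4 of them already at 90 min, and none was called lower. Among genes with at least 1 FPKM 14.4% were called higher at 240 min. At 90 min 15.9% of those genes were called higher and 12.5% lower. Tsr1 (chr11:74711582-74722842, mm9), a late assembly factor, had 4.46 FPKM in untreated livers and 6.20, 8.79 and 16.5 FPKM at 30, 90 and 240 min. It rose 1.95-fold at 90 min (adjusted p = 2.44e-08) and 3.53-fold at 240 min (adjusted p = 2.01e-23) in the authors' deposited table. Rrp12 (chr19:41937341-41970643, mm9), a factor for export of the precursor, had 1.34 FPKM in untreated livers and 1.30, 2.31 and 5.47 FPKM at the 3 times. Its folds of 1.7 at 90 min (adjusted p = 0.00283) and 3.82 at 240 min (adjusted p = 1.45e-08) in the authors' deposited table put it next to Nop58 in the size of the late increase. Wdr43 and Wdr75 belong to the complex that joins the precursor while it is transcribed, as does Heatr1. Wdr43 had 5.57 FPKM in untreated livers and 6.57, 7.92 and 13.7 FPKM at 30, 90 and 240 min. It was 1.42-fold higher at 90 min (adjusted p = 0.00424) and 2.39-fold higher at 240 min (adjusted p = 7.18e-12) in the authors' deposited table. Wdr75 had 3.19 FPKM in untreated livers and 4.17, 4.90 and 7.51 FPKM, with folds of 1.54 at 90 min (adjusted p = 0.00605) and 2.27 at 240 min (adjusted p = 6.77e-08) in the authors' deposited table.

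Heatr1, the scaffold of that complex, was called at 240 min only, 1.79-fold higher with an adjusted p of 0.000119 in the authors' deposited table. Nop14, which works with Noc4l in the early precursor, had 5.56 FPKM in untreated livers and 5.56, 6.85 and 11.5 FPKM at 30, 90 and 240 min, and an adjusted p of 2.86e-06 at 240 min in the authors' deposited table. The other 6 called at 240 min were Ltv1, Wdr3, Pno1, Noc4l, Utp20 and Nat10, with log2 ratios between 0.59 for Nat10 and 0.84 for Ltv1 in the authors' deposited table. Ltv1, a late factor that leaves before the subunit is finished, had 5.98 FPKM in untreated livers and 5.97, 5.06 and 10.9 FPKM at the 3 times. The 5 not called at any time were Nob1, the nuclease of the last cut, the helicase Ddx10, the GTPase Bms1, and Imp4 and Rrp9, which act with a box C/D snoRNP in the early cuts. Their log2 ratios at 240 min in the authors' deposited table were 0.51, 0.44, 0.40, 0.16 and 0.01, with adjusted p-values of 0.111 and above. Rrp9 had 7.31 FPKM in untreated livers and 4.70, 5.77 and 7.77 FPKM at 30, 90 and 240 min.

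Among the 16 large subunit factors 14 were called higher at 240 min, 5 of them already at 90 min, and 1 was called lower at 90 min. The shares among genes with at least 1 FPKM were 14.4% higher at 240 min, and 15.9% higher and 12.5% lower at 90 min. Gtpbp4 (chr13:8971724-8995258, mm9), a GTPase of the large subunit precursor, had 9.44 FPKM in untreated livers and 14.3, 22.7 and 36.7 FPKM at 30, 90 and 240 min. In the authors' deposited table it rose 2.41-fold at 90 min (adjusted p = 3.04e-17) and 3.78-fold at 240 min (adjusted p = 2.15e-25). Removing the length and GC trend left log2 values of 0.62 in place of 1.27 at 90 min and 1.49 in place of 1.92 at 240 min. The annotation holds 7 pseudogenes named after it, and the sources used here do not say how reads shared with them were counted. Gnl3 (nucleostemin), a nucleolar GTPase abundant in dividing and stem cells, had 10.8 FPKM in untreated livers and 11.3, 20.2 and 33.5 FPKM at the 3 times. Its folds were 1.86 at 90 min (adjusted p = 4.68e-09) and 3.01 at 240 min (adjusted p = 1.37e-13) in the authors' deposited table. Nop2, an RNA methyltransferase, had 5.34 FPKM in untreated livers and 6.24, 8.49 and 14.6 FPKM, with folds of 1.59 at 90 min (adjusted p = 0.00358) and 2.63 at 240 min (adjusted p = 2.91e-13) in the authors' deposited table. Noc3l had 1.64 FPKM in untreated livers and 2.1, 3.14 and 4.32 FPKM, with folds of 1.89 at 90 min (adjusted p = 0.000149) and 2.51 at 240 min (adjusted p = 7.06e-09) in the authors' deposited table.

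Rrs1 (chr1:9535489-9537536, mm9), an early assembly factor, had 6.94 FPKM in untreated livers and 8.56, 14.4 and 12.2 FPKM at 30, 90 and 240 min. It rose 2.08-fold at 90 min (adjusted p = 2.78e-06) and 1.68-fold at 240 min (adjusted p = 0.00107) in the authors' deposited table, the same order of times as Rrn3. Ftsj3, an RNA methyltransferase, and Nip7 rose at 240 min. Ftsj3 had 11.6 FPKM in untreated livers and 11.7, 12.5 and 25.5 FPKM at the 3 times, and was called at 240 min only (adjusted p = 7.52e-08, the authors' deposited table). Nip7 was 2.15-fold higher at 240 min (adjusted p = 1.17e-07) in the authors' deposited table, and its adjusted p at 90 min was 0.0556. The trimer of Pes1, Bop1 and Wdr12, needed for maturation of large subunit RNA, was unequal in calls. Wdr12 was 1.92-fold higher at 240 min (adjusted p = 2.35e-05) and Pes1 had a log2 ratio of 0.53 (adjusted p = 0.0108) in the authors' deposited table. For Wdr12 the log2 ratio of 0.94 came to 0.47 without the length and GC trend. Bop1 lay just outside the threshold, with 10.6 FPKM at 240 min against 7.32 FPKM in untreated livers and an adjusted p of 0.0506 in the authors' deposited table. Just inside it were Ddx56 and Nat10, with adjusted p-values of 0.0275 and 0.0249 in the authors' deposited table. Nop16, Ebna1bp2, Rrp1b and the helicase Ddx18 were called at 240 min with log2 ratios between 0.59 and 0.71 in the authors' deposited table. Mrto4, a placeholder for a stalk protein of the large subunit, fell to 11.0 FPKM at 90 min, against 14.8 FPKM in untreated livers (fold 0.74, adjusted p = 0.0415, the authors' deposited table). That log2 ratio of −0.43 came to −0.05 with the length and GC trend removed. At 240 min it had 20.6 FPKM and was not called (adjusted p = 0.142, the authors' deposited table). The annotation holds 2 pseudogenes named after Mrto4.

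**Figure D2:**
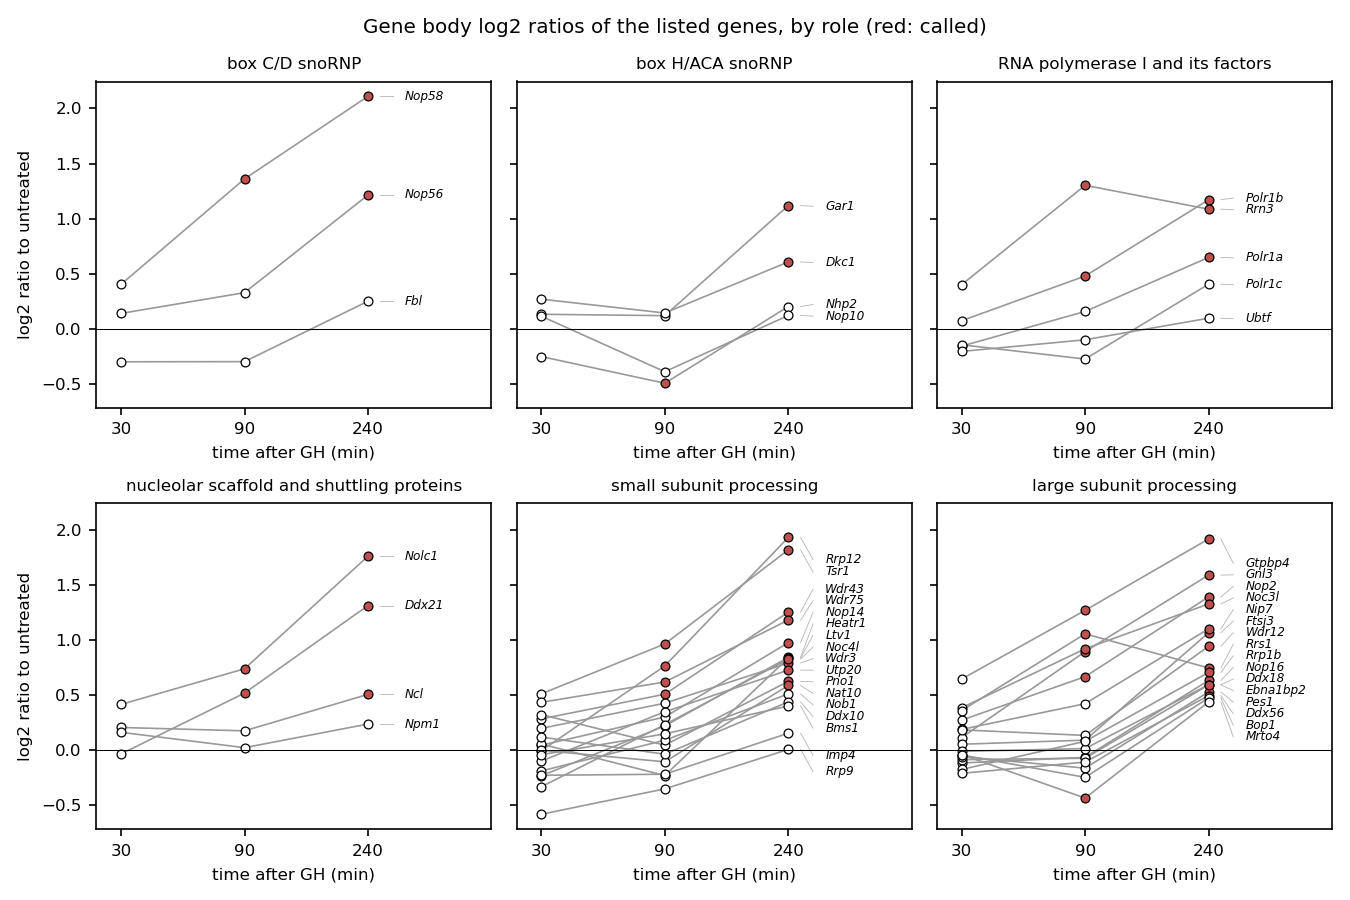
Log2 ratio to untreated livers (vertical axis) of the 49 listed genes at 30, 90 and 240 min after GH (horizontal axis), gene body reads, 1 panel per role and 1 line per gene. Red points are calls at an adjusted p below 0.05 in the authors' deposited table and white points are not called. All points at 240 min lie above 0 and none at 30 min is red. The 2 red points below 0 at 90 min are Nhp2 and Mrto4.

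**Figure D3:**
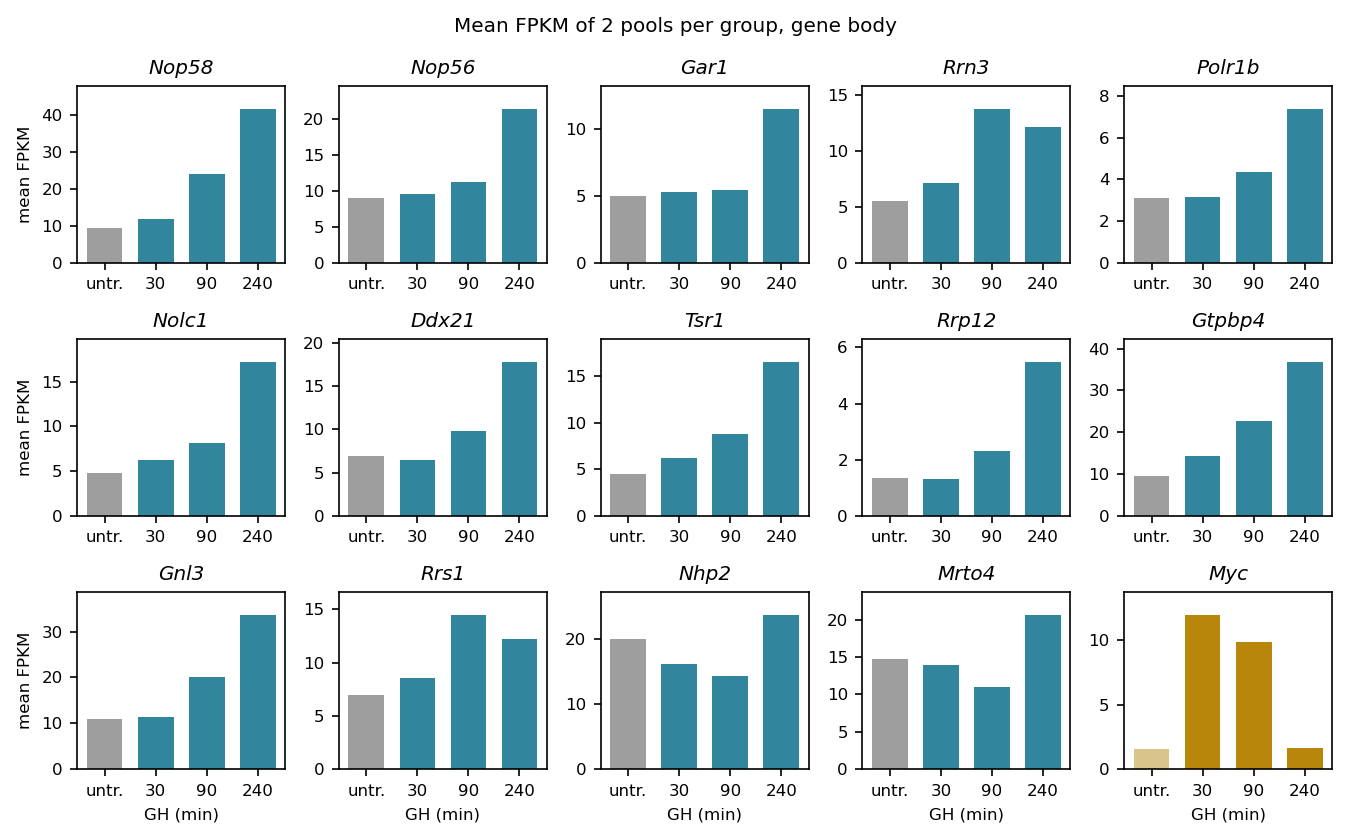
Authors' mean FPKM over the gene body (bars, linear axis from 0, scaled for each gene) in untreated livers and 30, 90 and 240 min after GH, for 14 listed genes and for Myc. Each bar is a mean over 2 pools and no error bar can be drawn. Rrn3 and Rrs1 are highest at 90 min, the other 12 listed genes at 240 min, and Myc at 30 min.

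In time, the gene body levels were mostly highest at the end. The authors' ratio was higher at 240 than at 90 min for 47 of the 49 genes (95.9%), the other 2 being Rrn3 and Rrs1. Of the 10736 genes with at least 1 FPKM 54.6% were higher at 240 than at 90 min. On the FPKM scale the numbers were 47 of 49 (95.9%) and 59.6%. No direct test between times can be made from the deposited table. The quotient of the authors' 240 and 90 min values had a median log2 of 0.65, and was 2.24-fold for Rrp12, against 0.861-fold for Rrn3 and 0.807-fold for Rrs1. Next after Rrp12 came Ltv1, Nolc1 and Gar1, with log2 quotients of 1.07, 1.02 and 1.00.

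Reads in introns come mostly from RNA that is not yet spliced, so that they follow transcription more closely than the gene body does. Intronic levels of the listed genes were low, with a median of 0.0773 FPKM in untreated livers and 0.122, 0.183 and 0.171 FPKM at 30, 90 and 240 min. Introns of 8 genes were called higher at 90 min, of 3 at 240 min and of none at 30 min in the authors' deposited table, and none was called lower at any time. Of all genes 0.351% were called higher in introns at 30 min, 3.32% at 90 min and 2.29% at 240 min, and 0.215%, 2.91% and 2.66% lower. Among the 9897 genes with at least 1 FPKM over the gene body and 0.01 FPKM in introns, 0.788%, 7.9% and 5.4% were called higher at 30, 90 and 240 min, and 0.515%, 6.61% and 5.97% lower. From the authors' deposited table, the median log2 intronic ratio of the 49 genes was 0.19, 0.47 and 0.64 at the 3 times, against 0.01, 0.06 and 0.04 for the 9897 genes. Rrs1 and Nop10 were listed at 0 intronic FPKM in each group, and both are kept in the medians of the 49. The longest transcript of Rrs1, 2048 nucleotides, is as long as the gene, so that it leaves no intron to count.

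Nop58 had the largest intronic ratio, 0.0515 FPKM in untreated livers and 0.150, 0.443 and 0.261 FPKM at 30, 90 and 240 min. In the authors' deposited table its introns were 5.87-fold higher at 90 min (adjusted p = 6.33e-13) and 4.12-fold higher at 240 min (adjusted p = 4.59e-06). At 30 min the intronic log2 ratio was 1.57, with an adjusted p of 0.329 in the authors' deposited table, while the gene body stood at 0.40. Gtpbp4 followed with 0.0478 FPKM in untreated livers and 0.140, 0.314 and 0.196 FPKM at the 3 times. Its introns were 4.17-fold higher at 90 min (adjusted p = 8.72e-08) and 3.13-fold higher at 240 min (adjusted p = 0.00256) in the authors' deposited table. With a pseudocount of 1 on the mean intronic FPKM, the log2 quotients at 90 min were 0.46 for Nop58 and 0.33 for Gtpbp4, since their levels are low. For both genes the mean intronic level was highest at 90 min, whereas the gene body level was highest at 240 min.

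Nolc1, the third gene with an intronic call at 240 min, differed in time. Its introns had 0.0715 FPKM in untreated livers and 0.171, 0.224 and 0.342 FPKM at 30, 90 and 240 min, and the authors' deposited table gave an adjusted p of 0.607 at 90 min and of 0.0141 at 240 min. The other 6 genes with introns called at 90 min were Gnl3, Gar1, Rrn3, Ddx21, Noc3l and Rrp12, with log2 ratios between 1.04 for Gnl3 and 1.72 for Rrp12 and adjusted p-values between 0.00388 and 0.0377 in the authors' deposited table. None of these 6 was called in introns at 240 min. Gar1 was the one of the 8 whose gene body was not called at 90 min. Its introns had 1.44 FPKM at 90 min and 0.390 FPKM in untreated livers, with a log2 ratio of 1.23 and an adjusted p of 0.00607 in the authors' deposited table, where the gene body had a log2 ratio of 0.12 at that time. Rrn3 introns had 0.0539 FPKM in untreated livers and 0.104, 0.179 and 0.0883 FPKM at 30, 90 and 240 min.

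**Figure D4:**
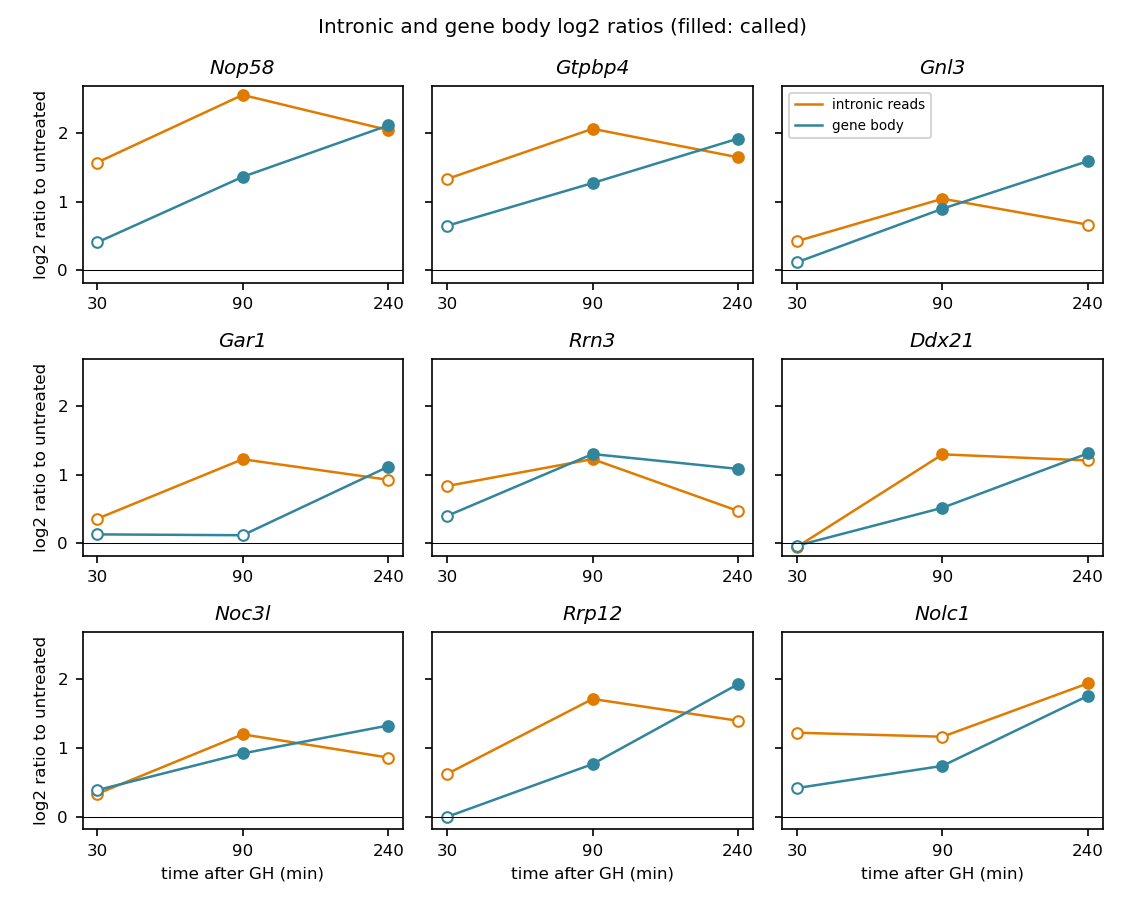
Log2 ratio to untreated livers (vertical axis) at 30, 90 and 240 min after GH (horizontal axis) for the 9 listed genes with an intronic call, intronic reads in orange and gene body reads in blue. Filled points are calls at an adjusted p below 0.05 in the authors' deposited table. Introns of Nop58 and Gtpbp4 stand at 2.55 and 2.06 at 90 min and lower at 240 min, and those of Nolc1 are highest at 240 min, at 1.94.

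Whether introns peaked at 90 or at 240 min depends on the scale. By the authors' ratio 19 of 47 listed genes with intronic reads were higher at 90 than at 240 min (40.4%, against 51% of the filtered genes), and by the authors' mean intronic FPKM 32 of 47 (68.1%, against 64.1%). The log2 intronic ratio minus the log2 quotient of the mean intronic FPKM had a median over genes of −0.14, −0.57 and −0.39 at 30, 90 and 240 min. For the gene body this difference was 0.049, −0.0022 and −0.054. Intronic reads can also come from snoRNA genes within introns. GENCODE M21 places a snoRNA gene inside 7 of the 49 genes (14.3%), namely Dkc1, Gnl3, Ncl, Nop56, Nop58, Tsr1 and Wdr43, against 1.79% of the 9884 protein-coding genes with at least 1 FPKM. Without these 7, the authors' deposited table had introns of 6 genes called higher at 90 min and of 2 at 240 min. Their part in the intronic values of Nop58 and Gnl3 was not tested.

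Further genes of ribosome biogenesis, 119 that are not on the list, were also more often called higher than lower at 240 min. Called higher were 57 and lower 2 at 240 min, and 15 and 7 at 90 min, and none was called at 30 min in the authors' deposited table. At 240 min 14.4% of genes with at least 1 FPKM were called higher and 8.58% lower, and 6.7% and 4.22% of all genes. At 90 min these shares were 15.9% and 12.5%, and 7.56% and 5.83% of all genes. Both counts at 90 min are smaller shares than among genes with at least 1 FPKM. The median log2 ratio of the 119 was 0.06, 0.08 and 0.51 at 30, 90 and 240 min. By role, 22 of 41 small subunit and 25 of 44 large subunit factors were called higher at 240 min in the authors' deposited table. So were 3 of 10 further RNA polymerase I genes, 2 of 9 snoRNP assembly factors and 5 of 15 genes of RNA decay. Those 15 are subunits and cofactors of the RNA exosome, which degrades and trims precursor RNA, and the separate exonuclease Xrn2. Nol8, a nucleolar protein, had 2.2 FPKM in untreated livers and 2.87, 3.87 and 9.03 FPKM at 30, 90 and 240 min. Its log2 ratio of 1.98 at 240 min had an adjusted p of 7.18e-25 in the authors' deposited table. The next smallest adjusted p-values belonged to Utp18, Mphosph10, Rsl1d1 and Nifk, with log2 ratios of 1.27, 1.47, 1.02 and 1.18 in the authors' deposited table.

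The 7 called lower at 90 min were Rcl1, Ddx49, Gltscr2, Eif6, Pih1d1, Exosc4 and Exosc5, with log2 ratios between −0.79 for Exosc5 and −0.44 for Ddx49 in the authors' deposited table. These are 7 of 119 genes, a smaller share than the 12.5% of genes with at least 1 FPKM that were called lower at 90 min. Taking out the trend with length and GC gave log2 values at 90 min of −0.42 for Rcl1, −0.07 for Ddx49, −0.23 for Eif6, −0.03 for Pih1d1 and −0.21 for Exosc4, each more than 1.5 times smaller. Exosc5 had −0.81 without the trend, and Gltscr2 had no such value. Eif6 keeps the large subunit from joining the small one too early. It fell to 24.9 FPKM at 90 min, against 38.9 FPKM in untreated livers (adjusted p = 0.000108, the authors' deposited table), and had 38.0 FPKM at 240 min. Rcl1, which acts in an early cut of the precursor, was called lower at 240 min as well, with 46.9 FPKM against 65.3 FPKM in untreated livers and an adjusted p of 0.0199 in the authors' deposited table. Gltscr2, a factor of the large subunit, was the other gene called lower at 240 min, with a log2 ratio of −0.44 and an adjusted p of 0.0322 in the authors' deposited table.

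The listed genes resembled expressed genes at large in length and base composition. By the longest transcript of each gene, their median length was 3128 nucleotides, against 3192 for the genes with at least 1 FPKM. Their median GC content was 48.4%, against 49.6%. After a trend of the log2 ratio with both was removed, the median of the 49 was −0.02, 0.12 and 0.66 at the 3 times. In GENCODE M21 19 of the 49 are overlapped by another gene on the opposite strand. The kit keeps strand, per the labels' protocols, but the sources used here do not say whether strand was used in counting.

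Myc, the transcription factor named above, was high before the listed genes were. It had 1.57 FPKM in untreated livers and 11.9, 9.88 and 1.65 FPKM at 30, 90 and 240 min. In the authors' deposited table it was 7.89-fold higher at 30 min (adjusted p = 1.53e-14) and 6.31-fold higher at 90 min (adjusted p = 1e-29), and its adjusted p at 240 min was 1. The part of Myc in the later levels of the listed genes was not tested. Igf1 and Socs2, which GH is known to raise in liver, were 5.45-fold and 28.3-fold higher at 240 min in the authors' deposited table.

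Markers of other cells moved in part with the listed genes. Of 5 cholangiocyte (bile duct cell) markers, 3 were called higher at 240 min, Krt19, Krt7 and Spp1, with log2 ratios of 1.80, 1.64 and 1.11 in the authors' deposited table. The summed level of the 5 was 17.3 FPKM in untreated livers and 16.4, 16.8 and 39.4 FPKM at 30, 90 and 240 min, and none was at 0. Most of that sum was 1 marker, the highest having 14.4 FPKM in untreated livers and 31.8 FPKM at 240 min. The median of the 5 was 0.913 FPKM in untreated livers and 1.51 FPKM at 240 min. Of 7 Kupffer cell and macrophage markers 2 were called lower at 240 min in the authors' deposited table, and their summed level was 136 FPKM in untreated livers and 128, 109 and 98.6 FPKM at the 3 times. The summed level of 6 neutrophil markers was 34.5 FPKM in untreated livers and 13.8, 50.6 and 21.1 FPKM, 3 of them being called higher at 90 min and 2 lower at 240 min in the authors' deposited table. Over the gene body none of 6 endothelial markers was called at any time in the authors' deposited table. Of 6 stellate cell markers 2 were called higher and 1 lower at 90 min, and 1, Lrat, higher at 240 min in the authors' deposited table. Hepatocyte markers were high in all groups, as the label liver has it. Their summed level was 52263 FPKM in untreated livers and 46091, 42082 and 35678 FPKM at the 3 times, lower at each later time. The highest marker made up most of that sum, with 40641 FPKM in untreated livers and 27957 FPKM at 240 min. The median of the 7 hepatocyte markers was 675 FPKM in untreated livers and 656, 901 and 747 FPKM at the 3 times. Of these 7 markers 5 were called lower and 1 higher at 90 min, and 4 lower at 240 min, in the authors' deposited table. None of 7 markers of cycling cells was called at any time in the authors' deposited table. Their summed level was 24.1 FPKM in untreated livers and 22.8, 24.3 and 30.4 FPKM at the 3 times, most of it Pcna, which had 28.9 FPKM at 240 min and 22.3 FPKM in untreated livers. Mki67 had 0.0785 FPKM at 240 min and 0.212 FPKM in untreated livers. Cdk1 had 0.249 FPKM at 240 min and 0.0803 FPKM in untreated livers, and Aurka 0.210 and 0.0241 FPKM. The values of Mki67, Cdk1 and Aurka lie below 0.253 FPKM, the level of 3 reads on 1 kilobase in the shallowest library. Of the ratios of the 7 markers at 240 min, 3 were above 1 and 4 below. Their median log2 ratio was −0.31 in the authors' deposited table. The part of these cell types in the listed genes' values was not tested.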

How the data were processed

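Per the labels' protocols, the 8 liver pools gave strand-specific poly-A libraries. Per the submitters' processing notes, TopHat2, featureCounts, edgeR and the mm9 build were used, their versions and roles not being stated. The authors deposited mean FPKM values per group for gene body and intronic reads, per the file headers. The ratio (fold) of each GH group over untreated is the authors' normalized expression ratio, per the file headers. Per the file headers, an adjusted p-value stands beside each ratio, and the sources used here do not give its adjustment. Depth was recovered from the smallest FPKM steps of low genes, and it bounds counting error only.

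Tests over single pools were planned, but the deposited table holds means over the pools, so the authors' calls at an adjusted p below 0.05 were counted. Each group had 2 pools of mice, so the p-values can reflect variation between pools only, not between mice. How the authors estimated that variation is not stated in the sources used here. The 50 genes and the lists were chosen with earlier results of these data known. Values in each group are printed for the genes of each role with the smallest adjusted p at 240 min, those called lower at any time and those with an intronic call. Of the other ribosome biogenesis genes, the 5 with the smallest adjusted p at 240 min and those called lower are named. Eif6, Rcl1 and Gltscr2 among the latter, and the genes ranked by level, were picked out after their values were seen.

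Low values were filtered at a mean of 1 FPKM, and for introns also at 0.01 intronic FPKM. The length and GC trend was fitted on 10314 genes (statsmodels 0.14.6), with the longest GENCODE M21 transcript of each gene. That transcript need not be the one expressed. It had 9507, 8783, 8202 and 10012 nucleotides for Nop58, Gtpbp4, Ncl and Wdr12, against a median of 3128 for the listed genes. The fit was tested on data simulated with the same lengths and GC contents. Such data cannot show whether these lengths hold for the expressed transcripts. The other alternatives were an adjusted p below 0.01, a change of at least 2-fold, quotients of FPKM with a pseudocount of 1 or 0.1, and, added after the data were seen, omission of snoRNA host genes and the order of times on FPKM. Promoters are from RefSeq (GRCm38.p6), while gene positions are those of the deposited table (mm9, 1-based). One list of cell type markers is not reported here. Calculations used Python 3.11.15, pandas 2.3.3 and numpy 2.4.6.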

Additional observations from a re-analysis of the deposited data

How the results depend on the processing

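The counts of called genes kept within 1.5 times of the reported ones under each alternative except those that follow. A change of at least 2-fold left 4 of 14 genes called higher at 90 min and 17 of 36 at 240 min, and 0 of the 2 called lower at 90 min, of which 1 passed an adjusted p below 0.01. That stricter p left 5 of the 8 genes with introns called at 90 min. The median intronic log2 ratio was 0.012, 0.12 and 0.12 at 30, 90 and 240 min from FPKM quotients with a pseudocount of 1, since most intronic levels lie far below 1 FPKM, and 0.078 at 30 min and 0.51 at 240 min with a pseudocount of 0.1. Gene body medians kept within 0.1 of the reported ones. Among called genes no direction reversed. Removal of the length and GC trend moved 35 gene body log2 ratios of called genes by 0.1 or more, while 17 stayed within 0.1. The cases printed with the single genes above shrank. Others grew, such as Rrs1 from 1.06 to 1.32 and Nop2 from 0.67 to 0.90 at 90 min. No paired analysis was possible because the deposited table gives no value per pool, and no pool could be left out in turn for the same reason. Low levels of introns limit what can be seen there, most being below 0.253 FPKM. That figure holds for 3 reads on 1 kilobase in the shallowest library. It is no floor for introns, whose lengths were not used here.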

Other observations

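The genes of the ribosomal proteins themselves did not move with the assembly factors. They were taken by symbol, with a rule chosen after the data were seen. It took Rpl or Rps with a number and only a closing a, x or l allowed, and also Rpsa and the Rplp genes. It left out Rpl7l1, counted above among the large subunit factors and called higher at 240 min (log2 ratio 0.69, adjusted p = 0.000595, the authors' deposited table). Over the gene body, 0 of the 79 genes that the rule took with at least 1 FPKM were called higher at any time in the authors' deposited table. At 90 min 61 of them were called lower, against 12.5% of genes with at least 1 FPKM, and at 240 min 2 were. Their median log2 ratio in the authors' deposited table was −0.16, −0.45 and −0.19 at 30, 90 and 240 min, and −0.16, −0.16 and −0.15 with the length and GC trend taken out.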
